A study of Mus musculus with 14 samples.

Results

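The genes described here encode the cyclin-dependent kinase (CDK) inhibitors, the 7 small proteins that hold back the kinases driving cells from G1 into S phase. They were taken by gene symbol, or by position where a library listed the locus without a name, and are 7 of 47169 genes with a value in at least 1 of the 14 samples. 3 of them form the CIP/KIP family, namely Cdkn1a (p21), Cdkn1b (p27) and Cdkn1c (p57). The other 4 form the INK4 family, namely Cdkn2a (p16INK4a and p19ARF), Cdkn2b (p15), Cdkn2c (p18) and Cdkn2d (p19INK4d).

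CIP/KIP proteins bind cyclin-CDK complexes broadly and act most strongly on CDK2, whereas INK4 proteins bind only CDK4 and CDK6 and keep them from pairing with D-type cyclins. In T cells, p27 is known for its fall when resting cells enter the cycle, p18 for restraining proliferation after antigen receptor signals, and p21 as a target of the tumour suppressor p53. The histone deacetylases HDAC1 and HDAC2 remove acetyl groups from histones as parts of shared repressor complexes, and Cdkn1a and Cdkn1c are known as genes they repress in several cell types.

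RNA-Seq was done on activated CD4+ T cells of C57BL/6 mice, which were 6 to 12 weeks old. The study describes the use of both sexes, and the sex read from RNA in these samples is given below. The labels give spleen as the source, and the methods of the study describe naive cells sorted from pooled spleen and lymph nodes. In the first experiment, 4 samples of naive CD4+ T cells from wild-type (WT) and 4 from HDAC1f/f HDAC2f/+ x CD4cre mice, called HDAC1cKO-HDAC2HET, were cultured for 3 days with anti-CD3, anti-CD28 and IL-2 under nonpolarizing conditions. In the second experiment, 3 samples from WT and 3 from HDAC1f/f x CD4cre mice, called HDAC1cKO, were cultured for 3 days in the same way, and a restimulation by anti-CD3 of 12 hours followed. CD4cre acts in developing thymocytes, so the floxed alleles were lost long before activation and also in the CD8 lineage, and HDAC2f/+ leaves an intact Hdac2 allele. The second experiment therefore differed from the first in genotype, restimulation and sample set. By the sex-linked RNA given below, sex differed in part as well. These factors cannot be told apart between experiments. Viable cells were sorted in all groups before RNA was prepared.

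The deposited values were FPKM, which are fragment numbers scaled to transcript length and library size. Their confidence bounds gave a depth of about 25100000 (HDAC1cKO-HDAC2HET replicate 3) to 59400000 fragments (HDAC1cKO-HDAC2HET replicate 4) per sample. Since FPKM is scaled to length, levels can be set side by side between genes. Hdac1 fell from 78.1 ± 1.44 to 8.30 ± 1.89 FPKM (SD, n = 4) in HDAC1cKO-HDAC2HET and from 75.6 to 10.1 FPKM in HDAC1cKO cells. Hdac2 fell from 59.0 to 35.4 FPKM in HDAC1cKO-HDAC2HET cells and did not pass the test in the second experiment, with means of 72.4 (WT) and 80.4 FPKM (HDAC1cKO). All 8 samples of the first experiment held Xist, the RNA of the inactive X chromosome. It was at 58.9 to 65.2 FPKM in WT and at 26.0 to 33.7 FPKM in HDAC1cKO-HDAC2HET samples and was called lower in the mutant. The 3 Y-linked genes with values in all of these samples summed to no more than 0.102 FPKM. In the second experiment WT replicates 1 and 3 held Xist at 42.9 and 33.2 FPKM, and WT replicate 2 and all 3 HDAC1cKO samples at no more than 0.0435 FPKM. WT replicate 3 also held Y-linked genes, which summed to 9.21 FPKM against 70.1 in WT replicate 2 and 62.8 to 75.5 in HDAC1cKO samples, so this library carried RNA of both kinds, and genotype in this experiment is partly tied to sex.

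In WT cells after 3 days, 4 of the 7 inhibitors were expressed well above the rest. Cdkn1a had the highest level at 59.2 ± 3.93 FPKM (SD, n = 4), followed by Cdkn2d at 34.4 ± 1.07, Cdkn2c at 29.8 ± 2.29 and Cdkn1b at 22.6 ± 1.56 FPKM. The ranges of neighbours in this order did not overlap. Cdkn1c came next at 0.614 ± 0.158 FPKM, and Cdkn2a and Cdkn2b stood at 0.151 and 0.0537 FPKM with overlapping ranges. The 4 expressed inhibitors thus covered both families, and each family also held members near the detection limit.

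The start regions of these 4 inhibitors are given because GC boxes, the sites read by the Sp1 and Sp3 factors that recruit HDAC1 and HDAC2 to Cdkn1a, were searched in them. Both factors were called lower in HDAC1cKO-HDAC2HET cells, Sp1 from 25.0 to 16.9 FPKM (limma adjusted p = 2.32e-05) and Sp3 from 42.4 to 25.3 FPKM (limma adjusted p = 1.30e-05). Both come from a list of 25 regulators, of which 24 were tested, 11 fell and 8 rose. In the second experiment Sp1 had no value, and Sp3 at 43.1 FPKM in WT and 33.0 FPKM in HDAC1cKO cells was not called. Whether the RNA of Sp1 or Sp3 bears on the inhibitors was not tested. Each window holds 250 bases before and 50 bases after a transcription start in RefSeq on GRCm38.p6, read 5′ to 3′ on the gene's strand, with capitals for GC boxes (GGGCGG, both strands). Cdkn1a starts at 2 places, with windows at chr17:29090729-29091028 and chr17:29093519-29093818 on the plus strand. The other windows lie at chr6:134920151-134920450 (plus, Cdkn1b), chr4:109666707-109667006 (minus, Cdkn2c) and chr9:21291160-21291459 (minus, Cdkn2d). A further start of Cdkn2c, with its window at chr4:109665323-109665622, lies farther from the end of the listed locus and was searched but is not printed.

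Cdkn1a, upstream start: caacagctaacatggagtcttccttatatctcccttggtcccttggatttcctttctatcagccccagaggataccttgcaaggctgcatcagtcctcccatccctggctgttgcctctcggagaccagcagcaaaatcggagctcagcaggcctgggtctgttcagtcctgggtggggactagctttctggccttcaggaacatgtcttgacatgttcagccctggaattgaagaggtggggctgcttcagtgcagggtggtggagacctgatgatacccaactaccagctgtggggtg
Cdkn1a, downstream start: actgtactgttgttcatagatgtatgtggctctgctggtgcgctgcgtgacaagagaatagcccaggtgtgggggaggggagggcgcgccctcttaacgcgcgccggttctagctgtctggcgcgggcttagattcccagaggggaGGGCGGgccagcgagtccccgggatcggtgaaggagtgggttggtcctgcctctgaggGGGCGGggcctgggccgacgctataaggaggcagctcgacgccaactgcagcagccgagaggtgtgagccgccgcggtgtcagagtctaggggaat
Cdkn1b: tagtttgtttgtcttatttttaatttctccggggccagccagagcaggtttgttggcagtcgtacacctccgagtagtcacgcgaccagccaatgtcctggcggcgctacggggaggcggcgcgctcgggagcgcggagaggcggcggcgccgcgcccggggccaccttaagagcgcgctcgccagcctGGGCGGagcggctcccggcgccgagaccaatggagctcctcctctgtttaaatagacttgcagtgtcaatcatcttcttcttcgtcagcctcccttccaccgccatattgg
Cdkn2c: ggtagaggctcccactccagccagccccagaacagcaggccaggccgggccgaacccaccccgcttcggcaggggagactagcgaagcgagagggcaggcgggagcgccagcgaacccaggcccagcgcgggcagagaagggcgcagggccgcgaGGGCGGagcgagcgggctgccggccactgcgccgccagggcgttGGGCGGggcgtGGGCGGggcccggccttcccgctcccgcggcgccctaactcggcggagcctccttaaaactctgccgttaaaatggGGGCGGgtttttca
Cdkn2d: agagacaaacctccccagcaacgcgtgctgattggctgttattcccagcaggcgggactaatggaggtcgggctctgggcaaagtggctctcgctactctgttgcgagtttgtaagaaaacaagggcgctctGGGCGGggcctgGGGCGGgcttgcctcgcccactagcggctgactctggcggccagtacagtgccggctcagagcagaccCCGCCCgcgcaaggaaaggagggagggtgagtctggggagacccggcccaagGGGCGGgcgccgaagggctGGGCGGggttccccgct

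Cdkn2d held 5 GC boxes, the printed Cdkn2c window 4, the downstream Cdkn1a window 2 and Cdkn1b 1, while the upstream Cdkn1a window and the further Cdkn2c window held 0. Of 32851 promoter windows of this length, 35.7% held at least 1 GC box, 5.49% at least 4 and 2.71% at least 5. The E-box CACGTG, bound by MYC and MXD proteins and held by 7.15% of all windows, was present once in the further Cdkn2c window and in none of the 5 printed windows. None of the E2F words TTTGGCGC, TTTCCCGC and TTTCGCGC, held by 1.84% of all windows, was in these 6 windows. TTTCCCGC was present once in the upstream window of Cdkn2a, which holds its ARF start and not that of p16INK4a. 6 of the 7 inhibitors had a window in the table, and the FPKM values are per gene and do not separate starts.

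In HDAC1cKO-HDAC2HET cells, Cdkn1a, Cdkn1b and Cdkn2c fell and Cdkn2d rose relative to WT, while Cdkn1c and Cdkn2a did not pass the test and Cdkn2b was too low to be tested. Genes were tested with limma on log2(FPKM + 0.1) where the mean FPKM was at least 0.1, with Benjamini-Hochberg adjustment over all genes and a call at an adjusted p of at most 0.05. 6 of the 7 inhibitors passed this filter. 3 were called lower and 1 higher, in an experiment where 27.6% of the 15111 genes tested were called lower and 24.2% higher. Only Cdkn1b also passed a 2-fold limit, which 5.56% of genes passed downwards and 5.6% upwards. With shares of this size, a call alone does not set the inhibitors apart from other genes.

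Cdkn1b (ENSMUSG00000003031, chr6:134920401-134925513, plus strand, mm10) measured 24.2, 20.9, 21.8 and 23.6 FPKM in the 4 WT samples and 12.8, 9.35, 10.02 and 10.05 FPKM in the HDAC1cKO-HDAC2HET samples. Every mutant sample lay below every WT sample. The log2 fold change was -1.10 ± 0.101 (SE, limma adjusted p = 6.58e-05), which is 0.467 of the WT mean, and the exact permutation test gave p = 0.0286, the smallest that 4 against 4 samples allow.

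Cdkn2c (ENSMUSG00000028551, chr4:109660876-109667189, minus strand) measured 29.1, 32.5, 27.1 and 30.6 FPKM in WT and 19.2, 17.6, 16.0 and 18.0 FPKM in HDAC1cKO-HDAC2HET samples. The mutant values were again all below the WT values, at 0.593 of the WT mean. The log2 fold change was -0.75 ± 0.0723 (SE, limma adjusted p = 8.42e-05).

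Cdkn1a (ENSMUSG00000023067, chr17:29090976-29100727, plus strand) was at 58.9, 64.7, 55.5 and 57.7 FPKM in WT and at 37.4, 45.6, 43.1 and 43.4 FPKM in HDAC1cKO-HDAC2HET samples. The groups did not overlap and the mutant mean was 0.715 of the WT mean, a log2 fold change of -0.48 ± 0.0714 (SE, limma adjusted p = 7.67e-04). The 95% interval ran from -0.65 to -0.32. The antisense gene AC167363.2 overlaps this locus, and whether the authors' quantification used strand is not given in the sources used here.

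Cdkn2d (ENSMUSG00000096472, chr9:21288410-21291407, minus strand) was the inhibitor that rose. It measured 35.5, 34.9, 34.3 and 33.0 FPKM in WT and 51.5, 51.6, 51.0 and 52.0 FPKM in HDAC1cKO-HDAC2HET samples. All 4 mutant values lay above all WT values, and their mean was 1.499 times the WT mean. The log2 fold change of 0.58 ± 0.0280 (SE, limma adjusted p = 3.86e-06) had the smallest standard error among the 6 inhibitors tested.

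**Figure D1:**
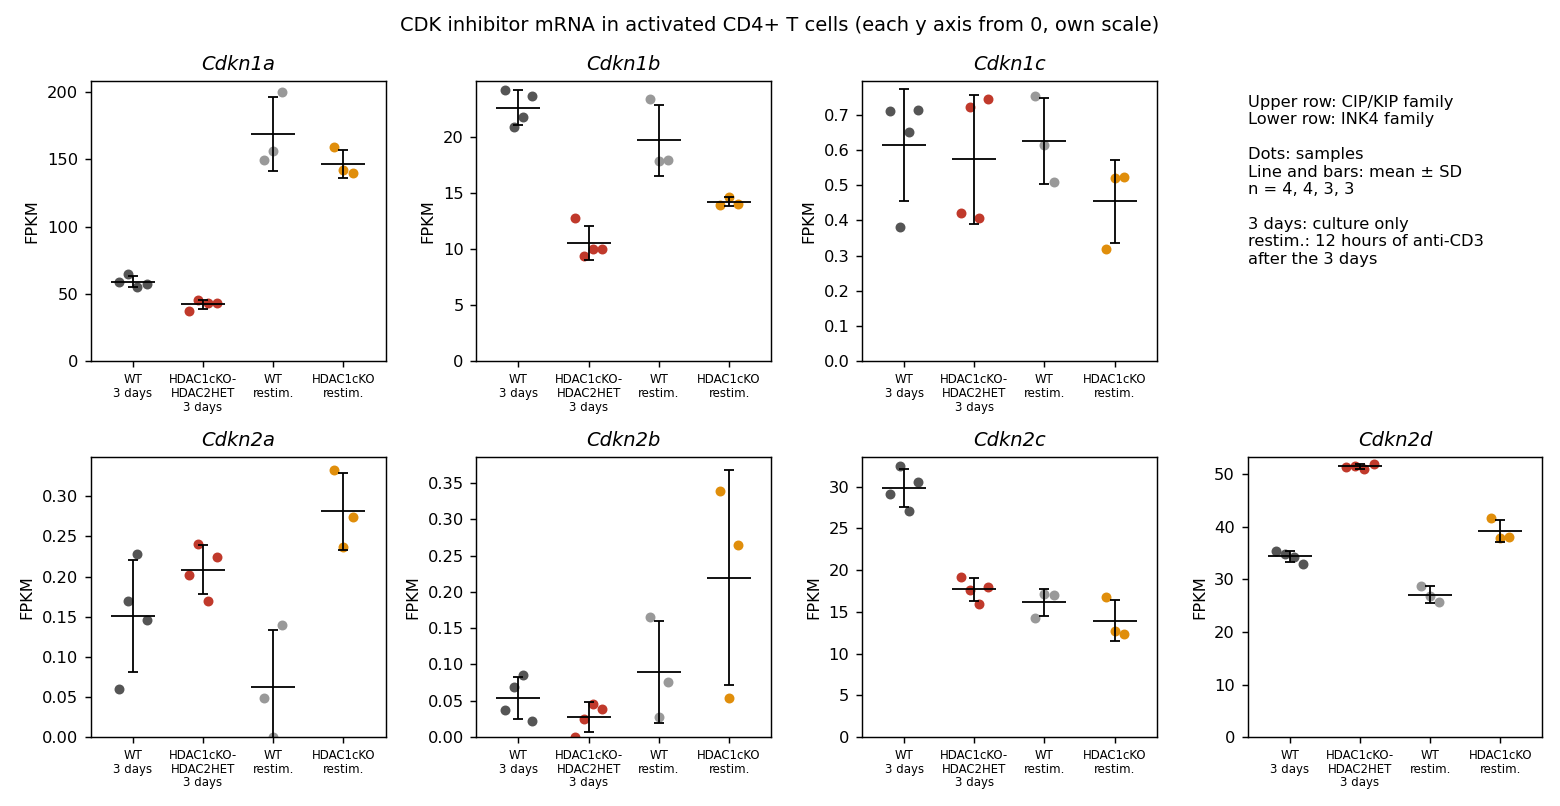
FPKM of each of the 7 CDK inhibitors in the 14 samples by group, with a dot for each sample, a line for the group mean and bars for its SD; every y axis starts at 0 and has its own scale. After 3 days of culture Cdkn1a, Cdkn1b and Cdkn2c lie lower and Cdkn2d lies higher in HDAC1cKO-HDAC2HET than in WT samples with no overlap, and Cdkn1a lies at 139.6 to 200.1 FPKM in the restimulated samples.

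Cdkn1c, Cdkn2a and Cdkn2b were near the limit of detection in all 4 groups. Cdkn1c (ENSMUSG00000037664, chr7:143458339-143461050, minus strand), which is expressed from the maternal allele, ranged from 0.318 to 0.753 FPKM over the 14 samples. This range implied about 9 to 46 fragments a sample for Cdkn1c. Its log2 fold change in HDAC1cKO-HDAC2HET cells was -0.10 with a 95% interval from -0.69 to 0.50 (limma adjusted p = 0.783), and it turned to 0.013 and 0.026 without HDAC1cKO-HDAC2HET replicate 1 or 3. An antisense gene, Gm44732, overlaps Cdkn1c.

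Cdkn2a (ENSMUSG00000044303, chr4:89274471-89294653, minus strand) was at 0.0600, 0.170, 0.228 and 0.145 FPKM in WT and at 0.202, 0.240, 0.169 and 0.224 FPKM in HDAC1cKO-HDAC2HET samples. These values imply about 9 and 15 fragments in all, the groups overlapped, and the log2 fold change was 0.34 (95% interval -0.21 to 0.90, limma adjusted p = 0.277). The p16INK4a and p19ARF transcripts share exons and were not separated. Cdkn2b (ENSMUSG00000073802, chr4:89306299-89311039, minus strand) rested on 9 fragments in the 4 WT and 4 fragments in the 4 HDAC1cKO-HDAC2HET samples, and its mean was below the filter. No change of these 3 genes was detectable at this depth.

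In restimulated HDAC1cKO cells, none of the 7 inhibitors was called, in an experiment where 0.0575% of the 13912 genes tested were called lower and 0.0144% higher, 8 and 2 genes. At an unadjusted p under 0.05 there were 1997 genes, against 8537 in the first experiment. With 3 against 3 samples the exact permutation test cannot go below p = 0.1.

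Cdkn2d measured 28.8, 26.9 and 25.7 FPKM in WT and 41.7, 37.9 and 38.1 FPKM in HDAC1cKO samples. All 3 mutant values were above all 3 WT values, the mean was 1.45 times the WT mean, and the log2 difference was 0.53 ± 0.0785 (SE, limma adjusted p = 0.120, exact permutation p = 0.1). With a term for sex read from Xist, the log2 difference was 0.54 with a limma adjusted p of 0.243, and without WT replicate 3 it was 0.49 (adjusted p = 0.154). In a fit that pools the spread of both experiments the same difference of 0.53 had an adjusted p of 2.15e-04. That fit takes the spread as equal, but the SE of Cdkn2d was 0.0280 in the first experiment and 0.0785 here. The pooled value is therefore no support for a change in HDAC1cKO cells.

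Cdkn1b measured 23.4, 17.9 and 17.9 FPKM in WT and 13.96, 14.7 and 14.04 FPKM in HDAC1cKO samples. The groups did not overlap either, at a log2 difference of -0.46 ± 0.124 (SE, limma adjusted p = 0.225). The value was -0.33 with the sex term and also without WT replicate 1, the sample at 23.4 FPKM.

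Cdkn1a measured 149.8, 156.6 and 200.1 FPKM in WT and 158.9, 142.1 and 139.6 FPKM in HDAC1cKO samples, with overlapping ranges. Its log2 difference of -0.19 (95% interval -0.51 to 0.12, limma adjusted p = 0.544) was -0.06 without WT replicate 3, the library that carried both Xist and Y-linked RNA. Cdkn2c measured 14.3, 17.2 and 17.1 FPKM in WT and 16.8, 12.8 and 12.3 FPKM in HDAC1cKO samples, which overlapped at a log2 difference of -0.22 (95% interval -0.58 to 0.14, limma adjusted p = 0.546). The interval of Cdkn1a holds the -0.48 measured for this gene in HDAC1cKO-HDAC2HET cells, and that of Cdkn2c does not hold the -0.75 measured there.

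The low inhibitors stood on few fragments here too. The FPKM of Cdkn2a implied about 0, 0 and 1 fragments in WT and 5, 3 and 5 in the HDAC1cKO samples, after rounding. WT replicate 1 stood at 0.0485 FPKM, so its rounded 0 is not an absence of fragments. The groups did not overlap, but the size of the difference depended on the pseudocount, with log2 values of 0.27, 1.31 and 2.70 at pseudocounts of 1, 0.1 and 0.01. Its mean reached the filter only through the HDAC1cKO samples, so no test of it is given as a result here. Cdkn2b, likewise above the filter only through the HDAC1cKO samples, held 6, 1 and 2 fragments in WT and 12, 2 and 12 in HDAC1cKO samples, which overlapped. Cdkn1c was at 0.626 ± 0.122 FPKM in WT and 0.454 ± 0.118 FPKM in HDAC1cKO samples (SD, n = 3), a log2 difference of -0.40 with a limma adjusted p of 0.551.

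**Figure D2:**
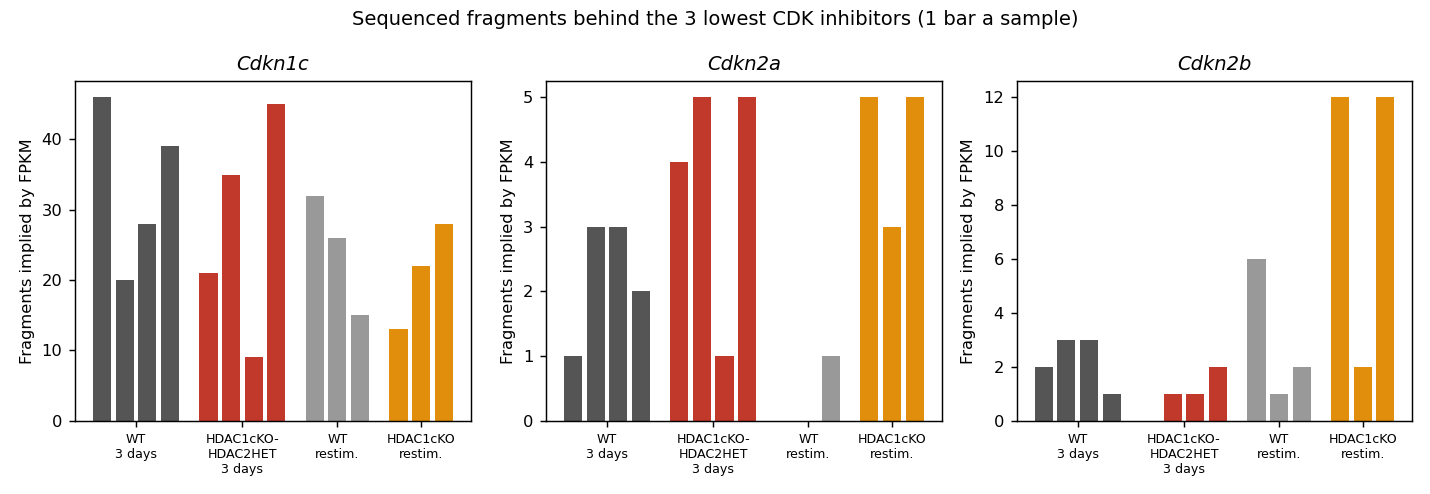
Sequenced fragments implied by the FPKM of Cdkn1c, Cdkn2a and Cdkn2b (y axis, from 0), with 1 bar for each of the 14 samples in replicate order within the 4 groups. Cdkn2a stays at or below 5 fragments in every sample, and Cdkn2b reaches 12 fragments in 2 of the 3 HDAC1cKO samples against 6, 1 and 2 in the WT samples of that experiment.

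The fold changes of both experiments were then set against each other in a fit of all 14 samples, in which 15.7% of 12355 genes tested differed. Cdkn1b and Cdkn2c were 2 of the 6 inhibitors tested that differed, each with a more negative log2 fold change in HDAC1cKO-HDAC2HET than in HDAC1cKO cells. The difference was -0.64 ± 0.162 for Cdkn1b (SE, limma adjusted p = 0.0200) and -0.53 ± 0.157 for Cdkn2c (SE, limma adjusted p = 0.0393). The Cdkn2c call was lost without any 1 of 8 samples, namely WT replicate 1, 2 or 4 or HDAC1cKO-HDAC2HET replicate 2, 3 or 4 of the first experiment or WT replicate 1 or HDAC1cKO replicate 1 of the second, at differences from -0.54 to -0.39 and adjusted p-values from 0.0591 to 0.0755. With the sex term it was -0.44 (adjusted p = 0.203).

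Cdkn2d did not pass this test, and its fold changes lay close together at 0.58 and 0.53. Their difference was 0.05 with a 95% interval from -0.10 to 0.20 on the log2 scale (limma adjusted p = 0.678). The fit pools the spread of both experiments, and the SE of 0.0684 behind this interval was below the 0.0785 of the HDAC1cKO change alone. The interval is therefore too narrow, and likeness of the Cdkn2d changes is not read from it. The difference for Cdkn1a was -0.29 (95% interval -0.60 to 0.02, adjusted p = 0.195), and without WT replicate 3 of the restimulated cells it was -0.42 and passed at an adjusted p of 0.0317. Cdkn2a was not called with all samples and was called without that library, but its restimulated values rest on the few fragments given above and reached the filter only through the HDAC1cKO samples. Genotype, restimulation and experiment all enter these differences and cannot be told apart. Sex enters as well, since it is partly tied to genotype in the second experiment.

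**Figure D3:**
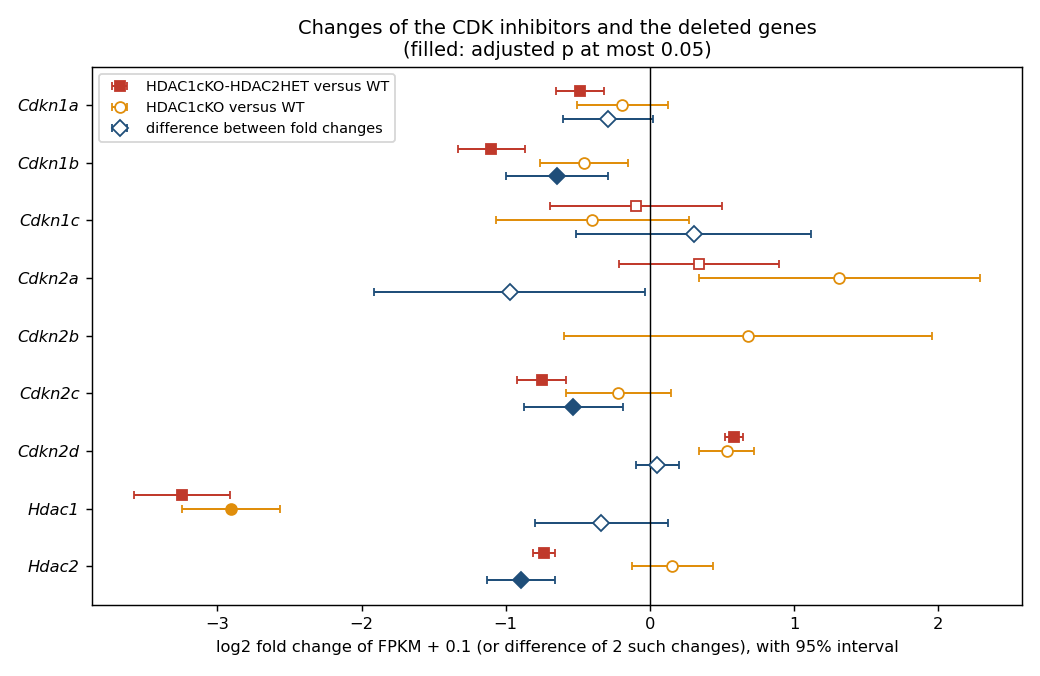
Log2 fold changes of FPKM + 0.1 (x axis) of the 7 inhibitors and of Hdac1 and Hdac2 (y axis) in both comparisons, and the difference between them, with 95% intervals; filled symbols passed an adjusted p of 0.05. Cdkn2d lies at 0.58 and 0.53 in the comparisons, whereas Cdkn1b lies at -1.10 in HDAC1cKO-HDAC2HET and -0.46 in HDAC1cKO cells; Cdkn2b was tested in the HDAC1cKO comparison only.

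The order of the expressed inhibitors differed between the groups. In all 4 WT samples after 3 days Cdkn1a was the highest, whereas in all 4 HDAC1cKO-HDAC2HET samples it was Cdkn2d, with no overlap between the 2 genes in either group. Cdkn2d amounted to 0.538 to 0.617 of the Cdkn1a level in WT and to 1.13 to 1.38 of it in HDAC1cKO-HDAC2HET samples. Against Cdkn1b the Cdkn2d level was 1.40 to 1.67 times as high in WT and 4.02 to 5.52 times as high in HDAC1cKO-HDAC2HET samples. Such ratios within a sample do not depend on the scaling between libraries.

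Summed over the 7 genes, the inhibitor FPKM was 139.6 to 153.6 in WT and 120.7 to 125.1 in HDAC1cKO-HDAC2HET samples. The CIP/KIP sum was 78.0 to 86.0 in WT and 50.6 to 55.7 in HDAC1cKO-HDAC2HET samples, while the INK4 sum of 61.7 to 67.6 in WT overlapped with 67.2 to 70.9 in the mutant. The INK4 share of the sum was therefore 43.6% to 44.2% in WT and 55.5% to 58.3% in HDAC1cKO-HDAC2HET samples. In the restimulated cells it was 16.4% to 20.1% in WT and 24.5% to 25.5% in HDAC1cKO samples. These are sums of mRNA levels over genes chosen with their changes known, and no test was made on them.

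**Figure D4:**
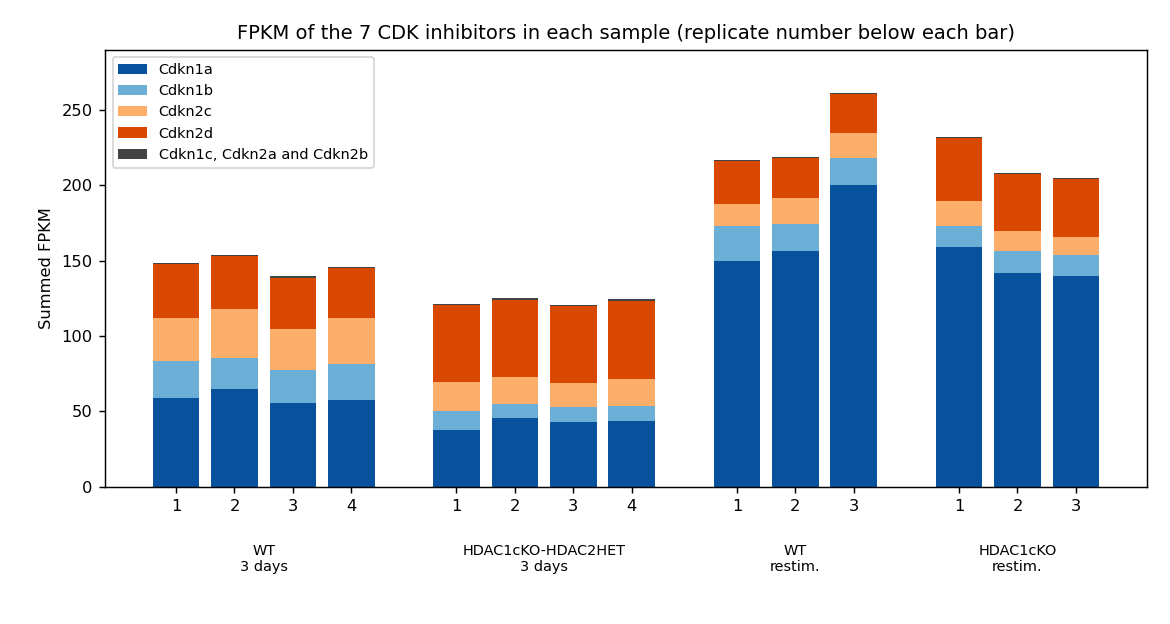
Summed FPKM of the 7 CDK inhibitors (y axis, from 0) in each of the 14 samples, with 1 colour for each expressed gene and 1 for the 3 low genes together. Cdkn2d is the largest part in the 4 HDAC1cKO-HDAC2HET samples and Cdkn1a in the other 10 samples, with totals from 120.7 to 261.4 FPKM.

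In restimulated WT cells Cdkn1a again had the highest level, at 168.8 ± 27.3 FPKM (SD, n = 3), which was 2.85 times the mean of WT cells after 3 days without overlap. Cdkn2c stood at 16.2 ± 1.62 FPKM, 0.542 of its level in WT cells after 3 days, and Cdkn2d at 27.1 ± 1.57 FPKM, 0.789 of it, both without overlap. Cdkn1b at 19.7 ± 3.16 FPKM overlapped with its values after 3 days. Cdkn1b stood above Cdkn2c in WT after restimulation, the reverse of their order after 3 days, and in HDAC1cKO cells these neighbours overlapped at 14.2 ± 0.390 and 13.95 ± 2.43 FPKM. The samples of these groups were handled in different experiments, so no test was made between them. The listed Cdkn2d locus also ran to 21291308 in the first and to 21291209 in the second experiment, so the lengths behind its FPKM may differ.

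Around the inhibitors, the genes of the G1 to S machinery showed changes in both directions in HDAC1cKO-HDAC2HET cells. The counts below stand beside the 24.2% of all genes called higher and 27.6% called lower in this experiment, and no list was tested against other genes. Of 13 listed CDKs and cyclins, 11 were tested, 5 rose, 3 fell and 3 did not pass. The median of this list was 0.10 on the log2 scale, and that of all genes tested -0.05. Ccne1, the cyclin that activates CDK2 at S phase entry, rose from 39.1 ± 0.378 to 63.5 ± 4.67 FPKM (SD, n = 4, limma adjusted p = 2.41e-05). Ccnd3, a D-type cyclin of lymphocytes and a partner of the CDKs that INK4 proteins bind, rose from 88.5 to 138.4 FPKM (adjusted p = 3.08e-05). Ccne2 fell from 19.1 to 13.03 FPKM (adjusted p = 1.26e-04). Neither Cdk6 nor Ccnd1 was tested.

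Of the 3 pocket proteins, which CDKs phosphorylate to release E2F factors, Rbl1 (p107) fell from 23.6 ± 1.51 to 13.4 ± 2.46 FPKM (limma adjusted p = 8.98e-04), while Rb1 at 18.8 and 19.1 FPKM and Rbl2 (p130) at 13.003 and 14.1 FPKM did not pass. Rb1 was listed at 0 in all 6 samples of the second experiment and was not tested there. A row with a name was kept even at 0, and any unnamed locus at its place was then not used. These zeros are therefore not read as absence of Rb1 RNA. Among 10 E2F and DP genes, 1 rose, 3 fell and 6 did not pass. E2f7, a repressor of the family, fell from 6.44 to 3.56 FPKM (adjusted p = 1.16e-04), Tfdp1 fell from 140.8 to 99.5 FPKM (adjusted p = 0.00231), and E2f1 rose from 20.2 to 23.3 FPKM (adjusted p = 0.0102). Of 20 proliferation markers, 19 were tested, 7 rose and 4 fell, around a list median of 0.02.

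Of 12 genes for the turnover of the inhibitor proteins, 2 of 11 tested rose and 3 fell, against 24.2% and 27.6% of all genes. One of those that rose, Skp2, at 8.02 and 8.70 FPKM (limma adjusted p = 0.0314), lost its call in 8 of 20 alternatives, the replicate block and 6 single samples left out among them. Cks1b, the cofactor with which SKP2 directs p27 to degradation, rose from 152.8 to 197.5 FPKM (limma adjusted p = 1.43e-04), and its relative Cks2 fell from 178.8 to 132.4 FPKM (adjusted p = 0.0165). Dtl, the adaptor that targets p21 for destruction during S phase, fell from 29.8 to 24.6 FPKM (adjusted p = 1.01e-04). Protein levels were not measured in these files.

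Among 25 regulators of inhibitor transcription, 24 were tested, 8 rose, 11 fell and 5 did not pass, where 24.2% of all genes rose and 27.6% fell. Klf2, a quiescence factor of T cells known to raise p21, fell from 21.03 ± 2.44 to 2.30 ± 0.341 FPKM (SD, n = 4, limma adjusted p = 2.10e-06), the largest change of the list. Id2 fell from 74.3 to 18.6 FPKM (adjusted p = 3.72e-04) and Id3 from 88.1 to 24.03 FPKM (adjusted p = 7.82e-06), and both encode inhibitors of E proteins, which are activators of Cdkn1a and other inhibitor genes. The regulators called higher included 4 that rose at least 2-fold. They were Gfi1, Runx3, Klf4 and Foxo4, at log2 fold changes of 1.74, 1.59, 1.47 and 1.25. Of 21 p53 targets, the group to which Cdkn1a belongs, 10 of 20 tested fell and 2 rose, and the median of the list was -0.35 on the log2 scale. Over all genes tested 27.6% fell, 24.2% rose and the median was -0.05, and no test of the list was made. Trp53inp1 fell from 20.1 to 6.70 FPKM (adjusted p = 1.43e-04) and Plk2 from 24.3 to 8.60 FPKM (adjusted p = 1.04e-05), whereas Perp rose from 6.17 to 25.6 FPKM (adjusted p = 4.38e-05).

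In HDAC1cKO cells no gene of these lists was called. Klf2 averaged 4.802 FPKM in WT and 1.58 FPKM in HDAC1cKO samples, whose ranges did not overlap (limma adjusted p = 0.147). The difference between its fold changes was -1.56 (adjusted p = 0.00413).

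**Figure D5:**
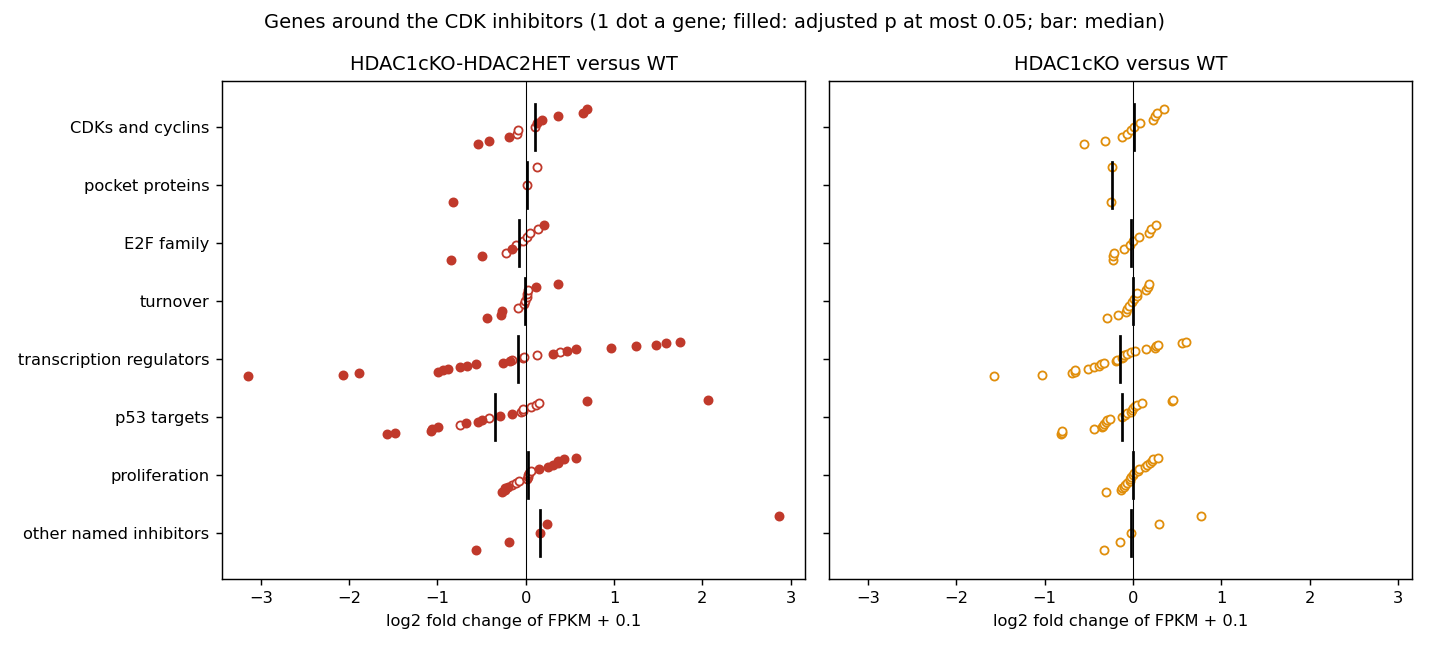
Log2 fold changes of FPKM + 0.1 (x axis) of the listed genes around the inhibitors by role (y axis), in HDAC1cKO-HDAC2HET versus WT on the left and HDAC1cKO versus WT on the right; a dot is a gene, filled where the adjusted p was at most 0.05, and a bar is the median of a list. The p53 targets have a median of -0.35 on the left and -0.12 on the right, and no dot on the right is filled.

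A further list held Cdkn3, Cdkn2aip, Cdkn2aipnl, Cables1 and Cables2, which carry CDK or inhibitor names without being inhibitors of these families. All 5 were called in HDAC1cKO-HDAC2HET cells, 3 higher and 2 lower, where 24.2% of all genes were called higher and 27.6% lower. Cdkn2aipnl and Cables2 changed by only 0.16 and -0.19 on the log2 scale, and Cdkn2aipnl lost its call with quantile normalization. Cables1, which encodes a CDK-binding protein, rose from 0.180 ± 0.0576 to 1.94 ± 0.356 FPKM (SD, n = 4, limma adjusted p = 1.63e-05). Cdkn2aip, whose product binds p19ARF, fell from 8.54 to 5.76 FPKM (adjusted p = 9.86e-04), and Cdkn3, a phosphatase of CDK2, rose from 18.9 to 22.2 FPKM (adjusted p = 0.0116), a call that was lost in the joint fit of both experiments.

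The neighbours of the inhibitor genes on their chromosomes moved in both directions. Beside Cdkn1b, which fell, Gpr19 fell from 2.91 to 1.51 FPKM (limma adjusted p = 0.0159), Apold1 rose from 0.283 ± 0.104 to 1.75 ± 1.14 FPKM (SD, n = 4, adjusted p = 0.00840) and Ddx47 at 72.1 and 76.7 FPKM did not pass. Beside Cdkn2c, Rnf11 fell from 14.4 to 11.4 FPKM (adjusted p = 0.00273) and Faf1 at 23.1 and 20.5 FPKM did not pass. Beside Cdkn2d, which rose, Slc44a2 rose from 63.1 to 77.0 FPKM (adjusted p = 2.62e-04), and Ap1m2 and Kri1 did not pass. Beside Cdkn1a only Srsf3 was tested and did not pass, since Rab44 and Cpne5 were under the filter and Pandar had no value. Of 9 genes in the imprinted region of Cdkn1c, 4 were tested, and Cars and Cd81 were called higher and Tssc4 lower. Ascl2, at 0.282 FPKM in WT and 0.0390 FPKM in the mutant, reached the filter only through the WT samples, so no test of it is given as a result. Mtap, beside Cdkn2a and Cdkn2b, was called higher at 37.4 and 44.5 FPKM (adjusted p = 0.0300) with overlapping ranges, and Dmrta1 was under the filter. The Mtap call was lost in 8 of 20 alternatives, namely quantile normalization, the replicate block and leaving out WT replicate 1, 2 or 3 or HDAC1cKO-HDAC2HET replicate 2, 3 or 4.

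Over the 14 samples, with each experiment centred on its own mean, the genes most like each expressed inhibitor were found among 9555 genes with mean FPKM of at least 1 in both experiments. Cdkn1b went with Zfp654, Zhx2 and Adora2b (Pearson r = 0.98 for each), Cdkn2c with Pskh1, Rasgrp1 and Zfp329 (r = 0.98, 0.98 and 0.97), Cdkn2d with Rab5c, Tnp2 and Rab35 (r = 0.99, 0.98 and 0.98), and Cdkn1a with Tmem43, Chek2 and Dffb (r = 0.94 for each). These correlations share libraries and largely follow the genotype contrast, and they are given as a description.

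Markers of T cell lineages moved with the HDAC1cKO-HDAC2HET genotype in the samples in which the inhibitors changed. The summed level of 6 CD4 T cell markers was 899.7 to 1003 FPKM in WT and 697.4 to 713.4 FPKM in HDAC1cKO-HDAC2HET samples, and all 6 were called lower, with Cd4 itself at 212.9 and 163.9 FPKM. Of the CD8 markers, Cd8b1 was called higher at 4.71 and 12.8 FPKM. Cd8a stood at 0.0581 and 0.439 FPKM and reached the filter only through the mutant samples, so no test of it is given as a result. Of 4 B cell markers, Cd79b was called higher at 0.293 and 2.76 FPKM. Of 5 myeloid markers, Lyz2 and Itgax were under 0.1 FPKM in every sample, Itgam reached 0.333 and Adgre1 0.354 FPKM, and Csf1r had no value. Of 2 NK cell markers, Ncr1 was at no more than 0.0155 FPKM in every sample, and Klrb1c reached 0.115 FPKM in the samples where it had a value. In HDAC1cKO cells the CD4 marker sum was 788.4 to 864.1 against 678.0 to 893.7 FPKM in WT, and the CD8 marker sum was 6.52 to 7.30 against 3.798 to 4.86 FPKM. The part of these markers in the changes of the inhibitors was not tested, and fewer cells with a transcript and less transcript per cell cannot be told apart in bulk RNA.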

How the data were processed

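RNA-Seq libraries were made with a stranded mRNA kit from sorted viable cells. The authors mapped reads to mm10 with TopHat 2.0.13 and computed FPKM per library with Cufflinks 2.2.1, per the paper's methods, and the deposited tables hold these FPKM values and their bounds. The labels also name STAR 2.5.2b and Subread 1.5.1 without saying for which files. Genes listed without a name were matched to GENCODE loci sharing at least 0.8 of the joint span. Cdkn1a was matched in all 14 samples, Cdkn1b in 8, Cdkn2c in 2 and Cdkn2d in 1. Failed rows were left out.

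log2(FPKM + 0.1) was fitted with limma 3.58.1 in R 4.3.3 (eBayes with trend, 2-sided) within each experiment for genes with mean FPKM of at least 0.1, and the difference between fold changes over all 14 samples, without a block, as same-numbered samples did not deviate together (r from -0.020 to 0.046) and nothing pairs them. Scripts were tested on simulated data. Exact permutation tests were 2-sided. Fragments and depth were read from the FPKM bounds, at which 84.8% to 89.2% of low single-transcript genes came out whole within 0.05. Cdkn1c and Cdkn2a have 5 and 2 transcripts and were outside this check, so their fragment numbers are approximate and not counts. No replicates held identical values over genes with FPKM of at least 1. Samples are separate by label, and p-values measure the spread between them. Members and gene lists were chosen with earlier results of these data known. Named list genes were the 3 called genes of each role with the largest change in the first experiment, all genes of roles with 4 or fewer, and counts only for proliferation. Some list genes were named beyond this rule, among them Sp1, Sp3 and the regulators that rose at least 2-fold. Alternatives were other pseudocounts, filters, scalings, weights, matches, a joint fit, a block, a sex term and leaving out each sample. A few listed neighbour and marker genes are not reported here.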

Additional observations from a re-analysis of the deposited data

Results flagged for a closer look

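Cdkn1b, Cdkn2c and Hdac2 were called as differing in fold change between the 2 experiments. The differences on the log2 scale were -0.64 for Cdkn1b (limma adjusted p = 0.0200), -0.53 for Cdkn2c (adjusted p = 0.0393) and -0.89 for Hdac2 (adjusted p = 3.29e-04), and a floxed Hdac2 allele was carried by HDAC1cKO-HDAC2HET mice and not by HDAC1cKO mice. The Cdkn2c call was lost in 12 of 27 alternatives, and the Cdkn1b call with array weights by experiment (limma adjusted p = 0.0566). Genotype, restimulation and experiment cannot be told apart in these differences, and sex is partly tied to genotype in the second experiment.

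The inhibitors, Hdac1, Hdac2 and the list genes named by the rule above were looked at for a sample apart from its group. A sample stood apart from the other 3 in 8 of 85 groups of 4, where chance gives about 1 in 20. None of these was an inhibitor. In HDAC1cKO-HDAC2HET replicate 3, the library of lowest depth, Rb1 was at 16.6 FPKM against 19.7 to 20.2 in the others, Klf2 at 1.79 against 2.42 to 2.53, and Cdkn2aip at 4.91 against 5.99 to 6.13. WT replicate 1 of that experiment held Tfdp1 at 115.7 against 146.7 to 152.8 FPKM and Klf2 at 17.4 against 21.998 to 22.7 FPKM. WT replicate 3 held Rb1 at 17.2 against 19.2 to 19.5 FPKM, WT replicate 2 held Srsf3 at 170.0 against 95.7 to 100.9 FPKM, and HDAC1cKO-HDAC2HET replicate 4 held Faf1 at 28.8 against 17.3 to 18.6 FPKM. Causes were not tested.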

How the results depend on the processing

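In the first experiment the calls of Cdkn1a, Cdkn1b, Cdkn2c and Cdkn2d held under every alternative in which the gene could be tested, 20 each for the first 3 and 21 for Cdkn2d. With the 2-fold limit 0 inhibitors were higher and 1 lower, and with rows listed by name only, which leaves Cdkn1a, Cdkn1b and Cdkn2c untested, 0 were lower. In the second experiment a joint fit of both experiments called 2 higher, Cdkn2d and Cdkn2a, and 1 lower, Cdkn1b. That fit pools unequal spreads, and the share of all genes it called is not given, so these calls are no support. Cdkn2a also reached the filter there only through the HDAC1cKO samples. The number with a difference between fold changes was 2, and 1 with array weights, with the replicate block and with the sex term, 0 with rows listed by name only and 0 with array weights by experiment, where the adjusted p of Cdkn1b was 0.0566. Leaving out each sample gave 1 to 4. The replicate block changed no other count of inhibitors, and the numbers pair nothing by label. Cdkn1c in the first experiment turned to 0.0127 and 0.0257 without HDAC1cKO-HDAC2HET replicate 1 and replicate 3, within -0.276 to 0.0257 over all samples left out, and the Cdkn2d difference to -0.0053 with quantile normalization; these were never called, and their cause was not tested. The sex term could not be fitted in the first experiment, where all samples held Xist. Scaling moved the median of all genes by less than 0.1. Depth limits Cdkn1c, Cdkn2a and Cdkn2b, which rest on at most about 46, 5 and 12 implied fragments a sample.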
